A study of Mus musculus with 4 samples.

Results

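Neutrophils of lungs carrying HKP1 tumours were examined after 4 Gy of irradiation and after 0 Gy (mock treatment). Among CD45-positive barcodes, a neutrophil was a barcode with a unique molecular identifier (UMI) of S100a8 or S100a9, with UMIs of at least 3 of the 8 genes Retnlg, Csf3r, Cxcr2, Mmp9, Il1r2, Hdc, Clec4d and G0s2, and with none of Cd3e, Cd79a, C1qa and Ccr2. The rule found 767 of 9608 CD45-positive barcodes at 4 Gy and 279 of 5415 at 0 Gy, 1046 of 15023 in both libraries and of 25315 barcodes in the whole series. Detection of these genes chose the cells, so their levels are given as description only. HKP1 is a mouse lung tumour line, and 150000 cells of it were injected through the tail vein into female C57BL/6 mice of 8 weeks. Mice were sorted into treatment groups of similar tumour burden by bioluminescence at day 6, received 4 Gy or 0 Gy on each of 3 days from day 10 to day 12, and gave their lungs 24 to 48 h after the last dose. Tumour-bearing lungs were thus the starting point of both groups, and no lung without tumour was analysed here. Cells of 4 mice per treatment went into 1 CD45-positive and 1 CD45-negative library each, with no map of cells to mice used here, sorted without DAPI uptake and made with 10x Genomics 3′ chemistry.

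Neutrophils are short-lived phagocytes that leave the bone marrow with granules already filled. Azurophil (primary) granules are made first, specific and gelatinase granules later, and the transcripts of their proteins decline as the cell matures. In the tissue, engagement of cytokine and pattern receptors switches on NF-kB and a wave of immediate early genes within minutes to hours, followed by chemokines, interleukin 1 and prostaglandin synthesis. S100a8 and S100a9 form calprotectin, the dominant cytosolic protein of the cell. In mouse lung tumours, a SiglecF-high neutrophil state that lives longer and promotes tumour growth has been described.

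With 1 library per dose there was no replicate, no test was made, and each difference between doses is a difference between 2 libraries. Levels are CPM, the UMIs of a gene per 1000000 of the UMIs summed over the neutrophils of a library. Ratios are 4 Gy over 0 Gy with an exact 95% counting interval. That interval treats each UMI as a separate count and says nothing of the spread between mice or between cells. The CD45-positive libraries held 36423571 UMIs at 4 Gy and 24045901 at 0 Gy, and the neutrophils 2036360 and 751432 of them. A neutrophil had a median of 1903 UMIs and 885 genes at 4 Gy, against 2018 UMIs and 894 genes at 0 Gy, fewer UMIs than the other barcodes of each library (2667 at 4 Gy, 3148 at 0 Gy). Mitochondrial RNA made up 1.59% of their UMIs at 4 Gy and 1.48% at 0 Gy, and ribosomal protein genes 4.45% and 4.23%. In the libraries of the 2 doses 10 barcode sequences occurred in both, and none of them was a neutrophil in both. Scrublet, which scores barcodes against simulated doublets, marked 22 neutrophils at 4 Gy and 4 at 0 Gy, and they were kept.

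The genes of the rule stood high, as the rule requires. S100a9 stood at 47925 CPM in neutrophils at 4 Gy and 38323 CPM at 0 Gy, and S100a8 at 37790 and 31158 CPM. Mmp9, gelatinase B, was detected in 89.6% of neutrophils at 4 Gy and 88.9% at 0 Gy, and Cxcr2, the receptor of CXCL1 and CXCL2, in 78.2% and 82.4%. After thinning every cell to 500 UMIs, Cxcr2 was seen in 43.0% and 40.6% of neutrophils, and in 0% of cells chosen as B cells (Cd79a and other B cell genes) at either dose. S100a9 had a UMI in 86.9% of thinned neutrophils and 2.60% of thinned B cells at 4 Gy, and in 92.8% and 0.876% at 0 Gy. Among neutrophil genes outside the rule, Trem1, which amplifies inflammatory signals, was at 456 CPM at 4 Gy and 592 CPM at 0 Gy. Ly6g, the antigen by which mouse neutrophils are usually recognised, was detected in 17.1% of the cells at 4 Gy and 7.89% at 0 Gy, and in 0% of thinned B cells at either dose. The neutrophils held 64.8% of all S100a9 UMIs of the 4 Gy library and 59.0% at 0 Gy. The remainder lay in other barcodes, among them those that met the rest of the rule but had a UMI of an excluding gene, which were 33.3% of 1150 candidates at 4 Gy and 36.4% of 439 at 0 Gy. Cd79a removed most of them, 21.8% of all candidates at 4 Gy and 24.8% at 0 Gy.

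Mcpt8, Cpa3, Ms4a2 and Il4 of basophils and mast cells had no UMI in neutrophils of either library, and neither had Prg2 and Il5ra of eosinophils. The basophil and mast cell markers summed to 3.44 CPM at 4 Gy and 5.32 CPM at 0 Gy. The 5 eosinophil markers in the files, of 7 listed, summed to 105 and 91.8 CPM, and at least 1 was detected in 18.4% and 14.7% of the cells. Siglecf, which tumour neutrophils can also carry, gave 100 and 90.5 CPM of those sums. Monocyte genes were present at a low level: of 7 genes (Csf1r, Adgre1, Cx3cr1, Ace, Treml4, Adgre4 and Cd300e), at least 2 were detected in 101 neutrophils (13.2%) at 4 Gy and 45 (16.1%) at 0 Gy. The summed level of 7 nonclassical monocyte markers, Nr4a1 among them and none at 0, was 525 CPM at 4 Gy and 1158 CPM at 0 Gy. The 7 classical monocyte markers summed to 413 and 371 CPM, with Ccr2 at 0 by the rule and Vcan and F13a1 at 0 at 0 Gy. The 7 macrophage markers summed to 619 and 733 CPM, with C1qa at 0 by the rule and C1qb, C1qc and Mrc1 at 0 at 0 Gy. The 7 alveolar macrophage markers, Chil3 among them, summed to 348 CPM at 4 Gy and 192 CPM at 0 Gy, the 7 dendritic cell markers to 267 and 488 CPM, the 7 NK cell markers to 298 and 94.5 CPM, the 7 B cell markers to 289 and 366 CPM and the 9 T cell markers to 116 and 110 CPM. The 6 endothelial markers summed to 57.9 and 102 CPM, and the epithelial, erythroid and platelet lists to less than that at both doses. The part of these cells in the differences below was not tested. Key ratios below are also given for the 455 and 160 neutrophils without a UMI of any of the 7 monocyte genes. At the edge of the rule, 46 neutrophils at 4 Gy and 10 at 0 Gy had exactly 3 of the 8 genes, and S100a8 with S100a9 made up 1.05% and 2.59% of their UMIs. Just outside it, 31 barcodes at 4 Gy and 7 at 0 Gy had 2 of the 8, and that share was 0.135% and 0.297%.

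Neutrophils took a larger share of the leukocyte library at 4 Gy. They were 7.98% of CD45-positive barcodes at 4 Gy (95% interval 7.45 to 8.54) and 5.15% at 0 Gy (4.58 to 5.77), a ratio of 1.55 (1.35 to 1.78). Cells chosen as B cells were 35.2% at 4 Gy and 42.2% at 0 Gy. As a share of barcodes outside the T, B and NK cell rules, neutrophils were 20.5% at 4 Gy and 16.1% at 0 Gy, a ratio of 1.27 (1.11 to 1.46). Shares of a sorted library do not give numbers of cells in the lung. The CD45-negative libraries held 4 barcodes that met the rule at 4 Gy and 5 at 0 Gy.

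The neutrophils of each dose were spread over a wide range of S100a8 and S100a9. The median neutrophil gave 5.07% of its UMIs to both genes at 4 Gy and 5.18% at 0 Gy, which is nearly the same. The quartiles lay farther apart at 4 Gy, at 1.15% and 14.2%, than at 0 Gy, at 2.13% and 10.8%. Cells under 2% were 256 of 767 at 4 Gy (33.4%, 30.04 to 36.8) and 68 of 279 at 0 Gy (24.4%, 19.5 to 29.8). Cells between 2% and 10% were 31.7% (28.4 to 35.1) at 4 Gy and 47.3% (41.3 to 53.4) at 0 Gy. Cells at 10% or more were 34.9% (31.6 to 38.4) at 4 Gy and 28.3% (23.1 to 34.0) at 0 Gy. These are genes of the rule, the intervals cover counting of cells within 1 library per dose, and no test was made. These ranges were set after the spread was seen, and they are cuts through a continuum, not cell types: 36 cells at 4 Gy and 31 at 0 Gy lay within 10% of the upper limit itself. Median UMIs in the ranges were 1774, 1821 and 2135 at 4 Gy and 1784.5, 2015 and 2125 at 0 Gy, from the lowest range to the highest.

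**Figure D1:**
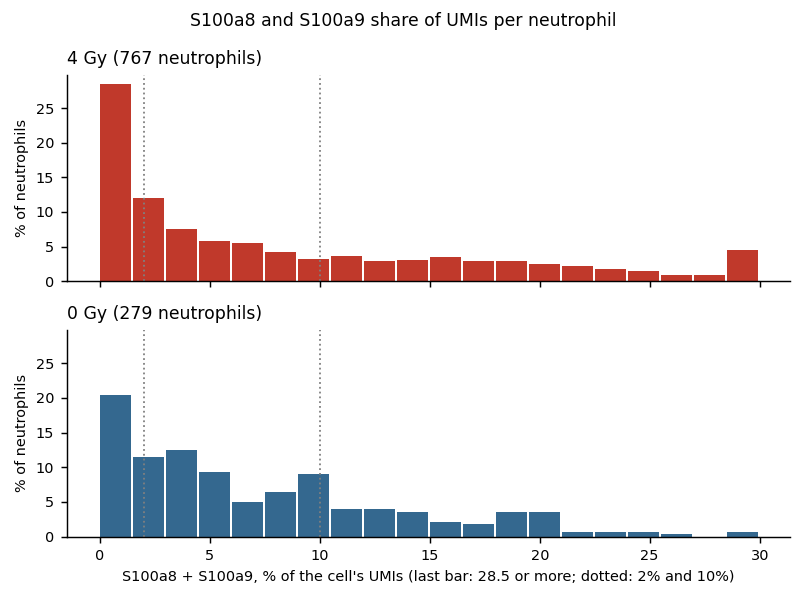
Distribution of the share of a cell's UMIs from S100a8 and S100a9 (x axis, percent) over the neutrophils of each library (y axis, percent of neutrophils), 4 Gy above and 0 Gy below. The bars between 2% and 10% hold 31.7% of the cells at 4 Gy and 47.3% at 0 Gy.

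Retnlg, a resistin-like secreted protein of mature blood neutrophils, is one of the rule's genes, so its level is description only. It reached 7100 CPM in neutrophils at 4 Gy and 4239 CPM at 0 Gy, although fewer cells had a UMI of it at 4 Gy (60.8%) than at 0 Gy (69.2%). The median cell had 4 UMIs at both doses, and the 90th percentile was 58 UMIs at 4 Gy and 32 at 0 Gy. In cells under 2% it was at 383 CPM at 4 Gy and 403 CPM at 0 Gy, between 2% and 10% at 3839 and 2562 CPM, and at 10% or more at 16935 and 11711 CPM.

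Across the genome, 5735 genes had at least 50 UMIs in the neutrophils of both libraries together. Of these, 381 (6.64%) were at least 1.5-fold higher at 4 Gy and 263 (4.59%) at least 1.5-fold lower, on a scale of log2(CPM + 5), 11.2% in either direction, and the median log2 ratio was -0.01. In all 6 of a set of settings (the main values, cells thinned to 500 UMIs, the mean over cells, cells with fewer than 2 monocyte genes, each gene without its richest cell, and cells under 5000 UMIs) 183 genes stayed higher and 75 lower. Outside the genes of the rule and the mitochondrial, ribosomal protein, haemoglobin and antigen receptor segment genes, those counts were 162 and 73. Among the 162 were Fn1 and Prok2, which reached the minimum of UMIs only through the 4 Gy library. The gene lists below are set against the background shares of 6.64% and 4.59%. Of the genes called, 170 of the 381 higher and 54 of the 263 lower would have missed the minimum of 50 UMIs had both doses been at the lower of their levels, so they passed through the dose at which they were higher. Among list members these included Prtn3, Serpinb1a, Mki67, Arg1, Mt1 and Gpnmb (higher) and Cd83, Il23a and Ccl2 (lower), and such calls support nothing about a list. In cells thinned to 500 UMIs 1673 genes were measured, and 11.8% were past 1.5-fold higher and 8.31% lower. Neutrophils with 5000 UMIs or more were 78 cells at 4 Gy and 27 at 0 Gy, and they held 30.4% and 28.3% of the UMIs.

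The list of specific and gelatinase granules leaned higher at 4 Gy, as it also did in cells chosen as monocytes (given below). It also holds genes of other kinds, such as the surface antigen gene Ly6g and the transcription factor gene Cebpe. In cells under 2% of S100a8 and S100a9 its summed level was 6252 CPM at 4 Gy and 2534 CPM at 0 Gy. Between 2% and 10% it was lower at 4 Gy, at 7048 and 7424 CPM, and at 10% or more it was 19790 and 18319 CPM. Of 18 measured genes of specific and gelatinase granules, 6 were past 1.5-fold higher and none past 1.5-fold lower, and the median log2 ratio was 0.44. Ly6g (chr15:75155240-75159126, plus strand, mm10) was at 148 CPM at 4 Gy and 61.2 CPM at 0 Gy, a ratio of 2.41 (1.77 to 3.37). It was detected in 131 neutrophils at 4 Gy and 22 at 0 Gy. Cd177 had 108 CPM at 4 Gy and 45.2 CPM at 0 Gy, ratio 2.39 (1.66 to 3.54). Wfdc21, a whey acidic protein-domain gene of neutrophils, had 1190 CPM at 4 Gy and 584 CPM at 0 Gy, ratio 2.04 (1.84 to 2.26), and Ifitm6 390 and 193 CPM, ratio 2.02 (1.69 to 2.43). All 4 were among the genes that stayed higher under the 6 settings. Lcn2, which encodes the iron-siderophore binder lipocalin 2, was at 1358 CPM at 4 Gy and 929 CPM at 0 Gy, ratio 1.46 (1.35 to 1.59), and the neutrophil collagenase gene Mmp8 at 394 and 285 CPM, ratio 1.38 (1.19 to 1.62).

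The genes that mark the youngest cells did not move together. Ngp had 303 CPM at 4 Gy and 322 CPM at 0 Gy, ratio 0.941 (0.810 to 1.10), and Ltf, the lactoferrin gene, 116 and 101.1 CPM, ratio 1.15 (0.881 to 1.504). Both rested on few cells (49 and 7 for Ngp, 28 and 7 for Ltf): without the richest cell of each library the ratios were 1.53 and 2.58, and in cells under 5000 UMIs 0.572 and 0.593. Camp, the cathelicidin gene, had 321 CPM at 4 Gy and 198 CPM at 0 Gy, but in only 15 and 2 cells, and 1 cell at 4 Gy held 258 of its 654 UMIs. In cells under 5000 UMIs its ratio was 1.11. Chil3, a chitinase-like protein, had 260 CPM at 4 Gy and 43.9 CPM at 0 Gy, and 1 cell held 157 of its 530 UMIs at 4 Gy. The ratio was 6.26 without the richest cell of each library and 2.29 in cells with fewer than 2 monocyte genes. Mpo, Elane and Ctsg of the primary granules were not analysed here. Of the 4 primary granule genes measured, Prtn3 had 52 UMIs at 4 Gy and 8 at 0 Gy and Serpinb1a 63 and 6, and both reached the minimum only through the 4 Gy library. Cd63 was at 272 CPM at 4 Gy and 169 CPM at 0 Gy, past 1.5-fold, and its ratio was 1.09 after thinning. Mki67, the cell cycle marker, had 52 UMIs at 4 Gy and 10 at 0 Gy.

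Shown are the 250 bases before the RefSeq start (GRCm38.p6) of 4 granule genes that hold the C/EBP core motif, searched on both strands as TTGCNNAA and printed in capitals. C/EBP factors, Cebpe in particular, are needed for specific granule formation. Levels of Cebpe were 32.4 CPM at 4 Gy and 34.6 CPM at 0 Gy, and of Cebpb 3301 and 3489 CPM. Sequences run 5′ to 3′ on the gene's strand.
Ngp (chr9:110419558-110419807, plus strand): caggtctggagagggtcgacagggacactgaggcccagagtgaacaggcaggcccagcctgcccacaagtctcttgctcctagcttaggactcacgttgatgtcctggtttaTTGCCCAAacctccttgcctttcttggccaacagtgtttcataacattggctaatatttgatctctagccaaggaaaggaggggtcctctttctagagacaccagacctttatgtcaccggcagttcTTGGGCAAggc
Ltf (chr9:111019042-111019291, plus strand): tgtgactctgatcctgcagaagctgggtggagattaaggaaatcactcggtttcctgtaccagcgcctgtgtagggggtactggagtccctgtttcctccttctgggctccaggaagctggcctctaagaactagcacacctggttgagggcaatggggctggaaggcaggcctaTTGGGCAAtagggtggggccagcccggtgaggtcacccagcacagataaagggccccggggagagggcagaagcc
Lcn2 (chr2:32387740-32387989, minus strand): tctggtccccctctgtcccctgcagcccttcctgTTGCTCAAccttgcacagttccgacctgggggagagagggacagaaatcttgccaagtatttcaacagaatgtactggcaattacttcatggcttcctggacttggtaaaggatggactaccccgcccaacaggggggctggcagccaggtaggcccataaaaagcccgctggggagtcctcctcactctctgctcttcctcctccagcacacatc
Mmp8 (chr9:7558179-7558428, plus strand): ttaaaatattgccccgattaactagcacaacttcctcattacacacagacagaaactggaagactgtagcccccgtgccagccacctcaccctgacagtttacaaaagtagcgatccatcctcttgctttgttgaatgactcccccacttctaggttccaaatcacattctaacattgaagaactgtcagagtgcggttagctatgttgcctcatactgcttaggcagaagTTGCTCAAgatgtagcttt
The Ngp window holds the motif with its first base 138 and 11 bases before the start, Ltf at 75, Lcn2 at 216 and Mmp8 at 19 bases. Of 17 granule genes with 1 promoter entry (of 21 listed), 8 held it (47.1%), against 257 of 3332 genes measured in neutrophils with 1 entry (7.71%) and 9.60% of 22862 genes in all. Fcnb, among those 8, was not measured in neutrophils. The 4 genes shown had dose ratios from 0.941 for Ngp to 1.46 for Lcn2, and Adam8, which also holds a match, one of 0.878. Camp, Chil3, Cd177 and Ifitm6, which were past 1.5-fold higher at 4 Gy, held no match. Ly6g and Wfdc21, also past it, had no single promoter entry and were not searched. A match of letters is no evidence of binding.

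Immediate early genes were lower at 4 Gy. Of 23 measured genes of that list, 7 were past 1.5-fold lower and none past 1.5-fold higher, 20 had a ratio below 1, and the median log2 ratio was -0.49. Nr4a1, an orphan nuclear receptor induced within an hour of stimulation (chr15:101254269-101274795, plus strand), was at 209 CPM at 4 Gy and 580 CPM at 0 Gy, a ratio of 0.361 (0.315 to 0.413). After thinning to 500 UMIs it was seen in 8.97% of neutrophils at 4 Gy (7.03 to 11.2) and 24.1% at 0 Gy (19.2 to 29.6), against 0.592% and 0.744% of B cells. Nr4a1 also marks nonclassical monocytes, and in neutrophils with none of the monocyte genes its ratio was 0.288. Jun had 482 CPM at 4 Gy and 824 CPM at 0 Gy, ratio 0.585 (0.528 to 0.648), and Fosb 233 and 423 CPM, ratio 0.550 (0.476 to 0.636). Fos, at 3314 and 4654 CPM, had a ratio of 0.712 (0.684 to 0.742), Egr1, at 1705 and 2288 CPM, one of 0.746 (0.703 to 0.790), and Dusp1, a phosphatase that shuts off MAP kinases, at 3493 and 5102 CPM, one of 0.685 (0.658 to 0.712). Klf6 had 729 and 1113 CPM, ratio 0.655 (0.601 to 0.714). The 3 genes with a ratio above 1 were Maff, Egr2 and Hsp90aa1, at 1.02, 1.03 and 1.44, and that of Hsp90aa1, a heat shock gene, was 0.906 after thinning.

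The feedback genes of NF-kB were lower as well. Of 20 measured, 5 were past 1.5-fold lower and 1 (Nfkbib, 97 UMIs at 4 Gy and 21 at 0 Gy) past 1.5-fold higher, and the median log2 ratio was -0.36. Nfkbia encodes the inhibitor that holds NF-kB in the cytoplasm and is itself an NF-kB target. It was at 1132 CPM at 4 Gy and 1852 CPM at 0 Gy, ratio 0.611 (0.571 to 0.654). Zfp36 encodes tristetraprolin, which promotes decay of Tnf and other cytokine mRNAs. It was at 1908 CPM at 4 Gy and 3225 CPM at 0 Gy, ratio 0.592 (0.562 to 0.623). Nfkbiz, a nuclear cofactor, had 444 and 866 CPM, ratio 0.512 (0.463 to 0.568), and Tnfaip3, the A20 deubiquitinase, 85.9 and 182 CPM, ratio 0.471 (0.375 to 0.594). Ier3 ran the other way at 1668 CPM at 4 Gy and 1164 CPM at 0 Gy, ratio 1.43 (1.33 to 1.54). In neutrophils without monocyte genes the ratio was 0.528 for Nfkbia, 0.586 for Zfp36, 0.437 for Nfkbiz and 0.299 for Tnfaip3.

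**Figure D2:**
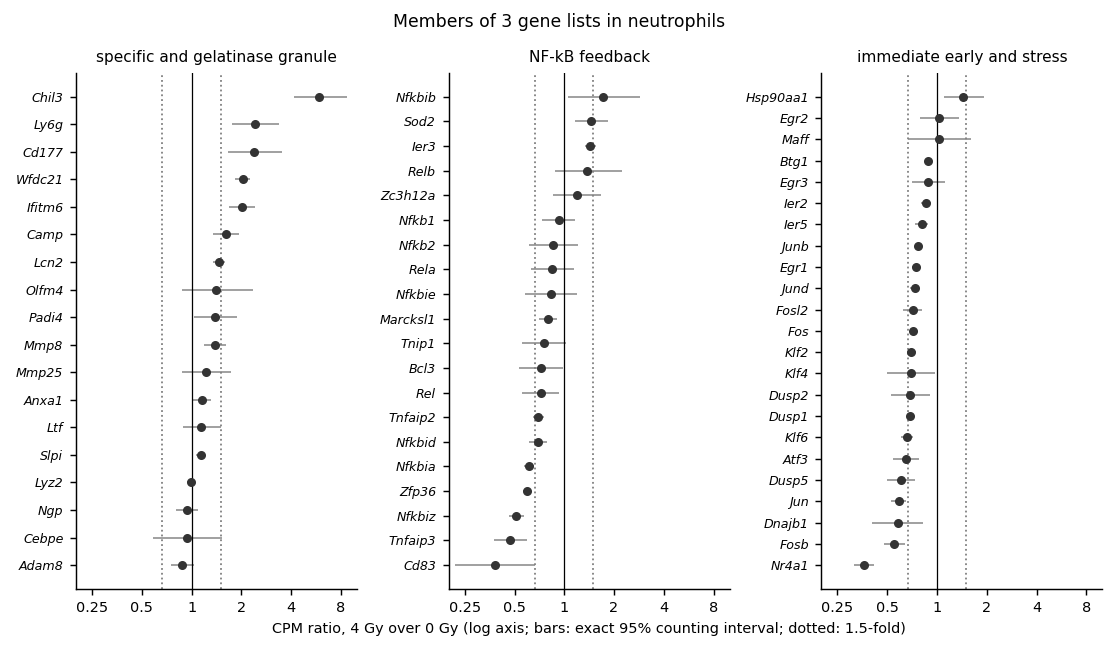
CPM ratio, 4 Gy over 0 Gy, on a log axis, for each measured member of 3 gene lists, with exact 95% counting intervals and dotted lines at 1.5-fold. Granule genes range from 0.878 (Adam8) to 5.93 (Chil3), while 20 of 23 immediate early genes lie below 1, with Nr4a1 the lowest at 0.361.

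The upstream windows of 3 inducible genes are shown for their motifs, the kappaB site of NF-kB (searched on both strands as GGG, any 2 bases, then TTTCC) in Nfkbia and Cxcl2, and the CArG box, the core of the serum response element, in Zfp36.
Nfkbia (chr12:55492648-55492897, minus strand): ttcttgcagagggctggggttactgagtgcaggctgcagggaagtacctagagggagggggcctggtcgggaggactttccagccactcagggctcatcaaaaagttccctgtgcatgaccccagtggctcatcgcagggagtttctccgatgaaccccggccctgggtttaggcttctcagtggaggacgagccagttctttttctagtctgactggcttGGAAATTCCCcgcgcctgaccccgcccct
Cxcl2 (chr5:90903649-90903898, plus strand): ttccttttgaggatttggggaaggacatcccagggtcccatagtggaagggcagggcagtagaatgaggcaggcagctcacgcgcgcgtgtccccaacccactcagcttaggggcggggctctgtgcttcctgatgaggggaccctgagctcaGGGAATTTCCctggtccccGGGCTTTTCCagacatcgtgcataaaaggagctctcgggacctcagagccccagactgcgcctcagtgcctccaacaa
Zfp36 (chr7:28379229-28379478, minus strand): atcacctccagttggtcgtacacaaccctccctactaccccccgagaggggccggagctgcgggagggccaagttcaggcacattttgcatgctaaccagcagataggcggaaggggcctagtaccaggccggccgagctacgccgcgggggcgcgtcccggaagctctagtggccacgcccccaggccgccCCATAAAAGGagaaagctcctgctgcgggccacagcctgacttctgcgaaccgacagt
The kappaB letters begin 29 bases before the start of Nfkbia and 97 and 78 bases before that of Cxcl2, and the CArG box 58 bases before that of Zfp36. A kappaB match was present in 2 of 14 NF-kB feedback genes with 1 entry (14.3%) and in 6 of 18 cytokine genes (33.3%), against 1.65% of measured genes. The list genes were searched whether measured or not, and of the 6 cytokine genes Il6 and Cxcl1 were not measured. A CArG box was present in 1 of the 14 NF-kB feedback genes (7.14%), against 1.14% of measured genes. Of 27 immediate early genes listed, 18 had 1 entry and were searched, and none of those held an AP-1 match (TGANTCA) and 1 held the cyclic AMP response element TGACGTCA, against 4.41% and 3.15% of measured genes. Cxcl2, with both kappaB matches, had 5298 CPM at 4 Gy and 6500 CPM at 0 Gy, ratio 0.815 (0.788 to 0.843).

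Among cytokines, 5 of 24 measured genes were past 1.5-fold lower at 4 Gy and 1 past 1.5-fold higher, and the median log2 ratio was -0.24. After thinning none of 16 was past 1.5-fold lower and 2 were higher, at a median of -0.15. Il1b, the most abundant cytokine transcript of these cells, was at 9348 CPM at 4 Gy and 12307 CPM at 0 Gy, ratio 0.760 (0.741 to 0.779). Ptgs2, the inducible cyclooxygenase, was at 819 CPM at 4 Gy and 1521 CPM at 0 Gy, ratio 0.538 (0.499 to 0.581), and Nlrp3, the inflammasome sensor, at 232 and 431 CPM, ratio 0.539 (0.467 to 0.622). Vegfa, an angiogenic factor, had 39 UMIs at either dose, which is 19.2 CPM at 4 Gy and 51.9 CPM at 0 Gy, ratio 0.369 (0.231 to 0.591), and Il23a had 23 and 36 UMIs, ratio 0.236 (0.133 to 0.409). Tnf was at 105 and 168 CPM, ratio 0.624 (0.498 to 0.784), but its ratio was 0.802 after thinning. Ccl2 was in 13 cells at 4 Gy and 2 cells at 0 Gy, and 1 of the 0 Gy cells held 40 of its 67 UMIs. The chemokines Ccl3 and Ccl4 differed little, with ratios of 0.947 (0.880 to 1.02) and 1.10 (1.03 to 1.19). Ccl5, the gene past 1.5-fold higher, had 1 cell with 128 of its 760 UMIs at 4 Gy, and its ratio was 1.06 after thinning.

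Fth1, Wfdc17, Tspo, Cstb and Ffar2, chosen after their values were seen, were past 1.5-fold higher at 4 Gy. Fth1, the ferritin heavy chain that stores iron, was at 16030 CPM at 4 Gy and 10292 CPM at 0 Gy, ratio 1.56 (1.52 to 1.60). Wfdc17, a whey acidic protein-domain gene of activated myeloid cells, was at 2906 CPM at 4 Gy and 1359 CPM at 0 Gy, ratio 2.14 (2.001 to 2.29), and it was detected in 528 and 166 neutrophils. Tspo, a protein of the outer mitochondrial membrane, was at 795 and 382 CPM, ratio 2.08 (1.83 to 2.37), and Cstb, a cytosolic inhibitor of cathepsins, at 498 and 229 CPM, ratio 2.18 (1.85 to 2.57). Ffar2, a receptor of short-chain fatty acids, was at 289 and 118 CPM, ratio 2.44 (1.95 to 3.09). Those 5 genes stayed past 1.5-fold under the 6 settings, and their ratios in neutrophils without monocyte genes were 1.63, 1.97, 1.98, 1.76 and 3.00. The peroxiredoxin gene Prdx5, at 2268 CPM at 4 Gy and 1549 CPM at 0 Gy, had a ratio of 1.46 (1.37 to 1.56), just under the 1.5-fold limit. Of 17 measured antioxidant and iron genes, 4 were past 1.5-fold higher and none lower, at a median log2 ratio of 0.11. Beside Fth1 these were Hmox1, heme oxygenase 1, with 96.7 and 57.2 CPM, Gclm, a subunit of the enzyme that starts glutathione synthesis, with 51.6 and 30.6 CPM, and Mt1, a metallothionein, with 40.3 and 16.0 CPM. The ratio of Hmox1 was 1.10 in cells with fewer than 2 monocyte genes, and that of Gclm 0.807 after thinning.

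The p53 target list holds genes that p53 switches on after DNA damage. Of 15 measured, 2 were past 1.5-fold higher, 1 past 1.5-fold lower, and the median log2 ratio was 0.13. After thinning 3 of 9 were past 1.5-fold higher and none lower, at a median of 0.44, the highest of 16 alternatives. The lowest median was -0.07, in neutrophils without monocyte genes, and 14 of the 16 alternatives kept the sign. Cdkn1a, the gene of the p21 brake on the cell cycle (chr17:29090976-29100727, plus strand), was at 628 CPM at 4 Gy and 389 CPM at 0 Gy, ratio 1.62 (1.42 to 1.84). It was detected in 272 neutrophils at 4 Gy (35.5%) and 60 at 0 Gy (21.5%), and after thinning in 17.0% (14.4 to 19.9) and 8.63% (5.61 to 12.6). Its ratio was 3.30 in neutrophils without monocyte genes. Ccng1, cyclin G1, was at 98.2 and 47.9 CPM, ratio 2.05 (1.43 to 3.01), and Mdm2, the ubiquitin ligase of p53, at 141 and 95.8 CPM, ratio 1.47 (1.13 to 1.93). Btg2 was lower, with 2448 CPM at 4 Gy and 3706 CPM at 0 Gy, ratio 0.660 (0.630 to 0.692). Bbc3 and Pmaip1, the apoptosis genes of the list, had ratios of 1.18 (0.705 to 2.06) and 0.728 (0.574 to 0.927), and that of Pmaip1 was 1.44 after thinning. Among 23 survival and apoptosis genes measured, 1 was past 1.5-fold higher (Bcl2, with 97 UMIs at 4 Gy and 18 at 0 Gy), and Mcl1, on which neutrophil survival depends, was at 2512 and 2591 CPM.

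Several differences held in every range of S100a8 and S100a9, and others did not. The ratio of Nr4a1 was 0.403 (0.314 to 0.520) in cells under 2%, 0.414 (0.341 to 0.502) between 2% and 10% and 0.270 (0.195 to 0.374) at 10% or more. Zfp36 had ratios of 0.576, 0.608 and 0.634 in the same order, and the median log2 ratio of the immediate early list was -0.49, -0.45 and -0.44. Jun of that list had a ratio of 0.955 (0.780 to 1.18) under 2%, and 0.508 and 0.529 in the ranges above. Wfdc17 had ratios of 1.55, 2.04 and 2.42. Fth1 differed below the upper limit only: 22014 CPM at 4 Gy and 13029 CPM at 0 Gy under 2%, 17718 and 9944 CPM between 2% and 10%, and 8552 and 8449 CPM at 10% or more. Cdkn1a was at 1130 CPM at 4 Gy and 806 CPM at 0 Gy under 2%, and at 10% or more there were 100 UMIs (148 CPM) at 4 Gy and 2 UMIs (11.2 CPM) at 0 Gy. Ccl3 was lower at 4 Gy in the upper range, with 230 CPM at 4 Gy and 702 CPM at 0 Gy, ratio 0.328 (0.258 to 0.419), and its ratios were 0.913 (0.816 to 1.02) under 2% and 1.24 (1.11 to 1.38) between 2% and 10%. Ly6g was concentrated in the upper range at both doses, with 371 CPM at 4 Gy and 185 CPM at 0 Gy, and the interval of the ratio ran from 1.39 to 2.97. Differences between ranges were not tested.

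**Figure D3:**
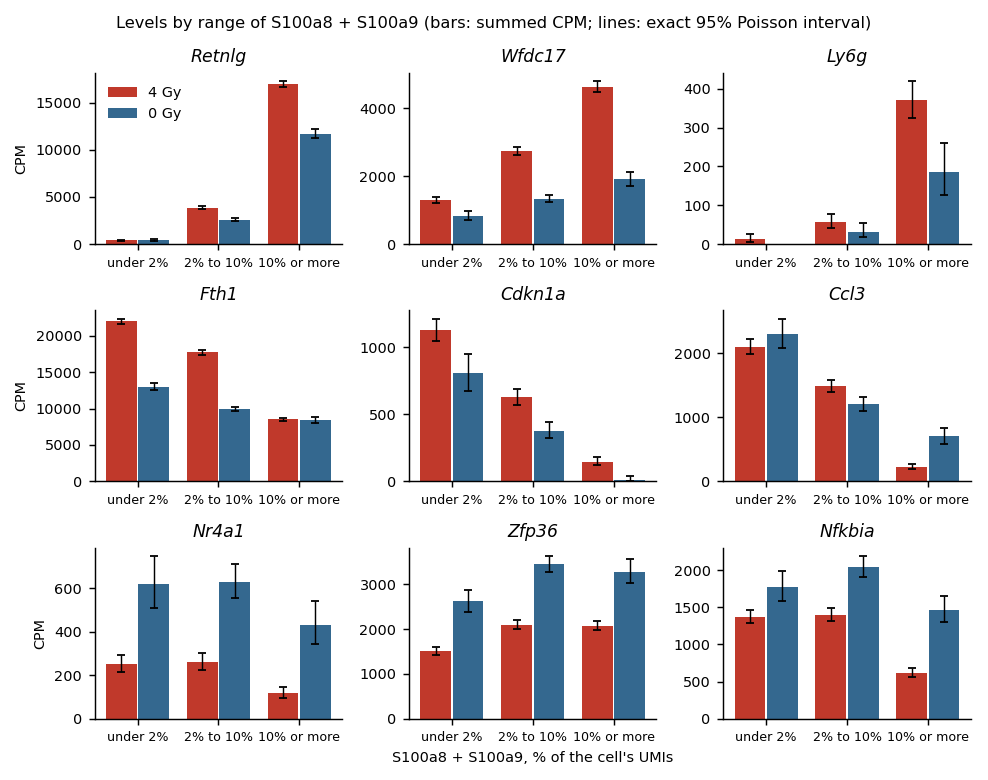
Levels of 9 genes (CPM of UMIs summed over the cells of a range) in neutrophils at 4 Gy and at 0 Gy, by the percent of a cell's UMIs from S100a8 and S100a9. Lines are exact 95% Poisson intervals. Nr4a1, Zfp36 and Nfkbia are lower at 4 Gy in all 3 ranges, while Fth1 and Cdkn1a are highest in the range under 2% and Retnlg and Ly6g in the range of 10% or more.

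Receptor genes were mostly level between doses, and adhesion genes leaned lower at 4 Gy. Of 32 surface receptors measured, 2 were past 1.5-fold higher and none lower, at a median log2 ratio of -0.00. They were Fcgr2b, the inhibitory Fc receptor, at 123 CPM at 4 Gy and 59.9 CPM at 0 Gy, and Ifnar1, a chain of the type I interferon receptor, at 70.7 and 38.6 CPM. Cxcr4, which holds neutrophils in the bone marrow and rises in aged cells, was at 615 CPM at 4 Gy and 840 CPM at 0 Gy, ratio 0.732 (0.665 to 0.807). The ratio of Trem1 was 0.770 (0.687 to 0.864). Of 21 adhesion genes, 2 were past 1.5-fold lower, Icam1 and Itgb7, and none higher. A ratio below 1 was found for 14 of them, and the median log2 ratio was -0.20 (-0.28 to -0.15 over 16 alternatives). Itgal, a chain of the integrin LFA-1, was at 403 and 596 CPM, ratio 0.676 (0.602 to 0.760). Of 9 genes of the NADPH oxidase list, 1 was past 1.5-fold lower, Cybb, the catalytic subunit of the oxidase, at 197 CPM at 4 Gy and 334 CPM at 0 Gy, ratio 0.591 (0.504 to 0.695). In cells under 5000 UMIs the Cybb ratio was 0.806.

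Of 32 type I interferon genes measured, 2 were past 1.5-fold higher and none lower, at a median log2 ratio of -0.02. Isg15 was at 960 CPM at 4 Gy and 767 CPM at 0 Gy, ratio 1.25 (1.14 to 1.38), Rsad2 at 319 CPM at both doses, ratio 0.998 (0.859 to 1.16), and Isg20, past 1.5-fold, at 200 and 120 CPM, ratio 1.67 (1.33 to 2.13). Of 18 interferon gamma genes, 1 was past 1.5-fold in each direction, Socs1 higher, with 175 and 110 CPM, and Cxcl9 lower, in 17 cells at 4 Gy and 6 at 0 Gy. Of 15 MHC class I genes 1 was past 1.5-fold lower, H2-M3, with 39 UMIs at 4 Gy and 26 at 0 Gy. After thinning, 3 of 12 interferon gamma genes and 3 of 12 MHC class I genes were past 1.5-fold higher and none of either list lower. MHC class II genes are not a neutrophil program, and 4 of 6 measured were past 1.5-fold lower, but a single neutrophil at 0 Gy held 583 of 1116 Cd74 UMIs. Without the richest cell the median log2 ratio of that list was 0.055, in place of -0.94.

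Of 22 measured glycolysis and hypoxia genes 1 was past 1.5-fold higher, Ldha, lactate dehydrogenase A, with 388 CPM at 4 Gy and 256 CPM at 0 Gy, 16 had a ratio above 1, and the median log2 ratio was 0.24. After thinning 5 of 13 were past 1.5-fold higher and none lower. Of 9 eicosanoid genes 2 were past 1.5-fold lower, Ptgs2 and Hpgd, and Hpgd encodes an enzyme that degrades prostaglandins; its ratio was 3.06 in neutrophils without monocyte genes, in place of 0.387. No gene of the circadian clock list (4 measured) or of the lineage transcription factor list (13 measured) was past 1.5-fold, and of 5 proliferation genes none but Mki67, described above, was. Of 18 genes listed for suppressive neutrophils 3 were past 1.5-fold higher, Wfdc17, Ctsd and Arg1, and 1 lower, Ptgs2. Arg1, arginase 1, had 55 UMIs at 4 Gy and 2 at 0 Gy, of which 1 cell held 39.

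Of 27 measured genes of the SiglecF-high state, 6 were past 1.5-fold higher and 4 past 1.5-fold lower, 20 had a ratio above 1, and the median log2 ratio was 0.33. After thinning, 7 of 20 were past 1.5-fold higher and none lower, at a median of 0.42. Siglecf itself was at 100 CPM at 4 Gy and 90.5 CPM at 0 Gy, ratio 1.11 (0.837 to 1.48). Spp1, the osteopontin gene, had 710 UMIs in 71 cells at 4 Gy and 50 in 23 cells at 0 Gy, ratio 5.24 (3.93 to 7.13). At 4 Gy 1 cell held 293 of them, and the ratio was 3.66 without the richest cell of each library and 1.75 after thinning. Gpnmb had 58 UMIs in 7 cells at 4 Gy, 26 of them in 1 cell, and 1 UMI at 0 Gy. After thinning, Siglecf was detected in 45 neutrophils at 4 Gy (5.94%, 4.36 to 7.86) and 13 at 0 Gy (4.68%, 2.51 to 7.86). Within each library, thinned neutrophils with a Siglecf UMI were set against those without. Genes of the SiglecF-high list summed to 1.26-fold at 4 Gy (1.10 to 1.42) and 1.18-fold at 0 Gy (0.877 to 1.56) the level in cells without Siglecf. Genes of the interferon gamma list summed to 2.01-fold at 4 Gy (1.73 to 2.34) and 2.34-fold at 0 Gy (1.75 to 3.09) the level in cells without Siglecf. Psmb8, a subunit of the immunoproteasome, had ratios of 2.15 at 4 Gy and 3.00 at 0 Gy. Genes of specific and gelatinase granules summed to 0.416 (0.335 to 0.511) of the level in cells without Siglecf at 4 Gy and 0.400 (0.252 to 0.603) at 0 Gy. Immediate early genes summed to 0.756 (0.687 to 0.829) at 4 Gy and 1.05 (0.923 to 1.19) at 0 Gy, and survival and apoptosis genes to 1.38 (1.21 to 1.58) and 0.965 (0.725 to 1.26). Retnlg was at 1604 CPM in cells with Siglecf and 7377 CPM in those without at 4 Gy, and at 1079 and 4445 CPM at 0 Gy.

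The chemokine gene Ccl3 was examined in the same way. After thinning, 165 neutrophils (21.8%, 18.9 to 24.9) had a Ccl3 UMI at 4 Gy and 45 (16.2%, 12.1 to 21.1) at 0 Gy. In them Ccl4 was at 6222 CPM, against 341 CPM without Ccl3, at 4 Gy, and at 5240 against 155 CPM at 0 Gy. The SiglecF-high list, of which Ccl4 is a member, summed to 3.13-fold at 4 Gy (2.91 to 3.36) and 2.92-fold at 0 Gy (2.52 to 3.37). Cxcl3 and Cxcl2, ligands of Cxcr2, and the survival genes Bcl2a1b and Bcl2a1d were among the 8 genes chosen for being higher in cells with Ccl3 in both libraries, Cxcl3 at ratios of 9.24 at 4 Gy and 6.46 at 0 Gy. Retnlg was lower in them, with ratios of 0.163 at 4 Gy and 0.257 at 0 Gy. Bcl2a1b and Bcl2a1d are near-identical copies whose reads can be shared, so their separate values are uncertain. Camp, by contrast, marked 7 cells at 4 Gy and 2 at 0 Gy, which also held Ngp at 16999 and 30581 CPM (58 and 30 UMIs). They had lower Il1b and Srgn than the other neutrophils of their library, on 5 and 3 UMIs of Il1b and 3 and 1 of Srgn. These genes, and those named for Ifit3 next, were chosen for differing in the same direction in both libraries. Neutrophils with Ifit3, 11 at 4 Gy and 10 at 0 Gy, had more Rsad2, by 6.87 and 8.96, and more Isg15, by 5.43 and 5.70.

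**Figure D4:**
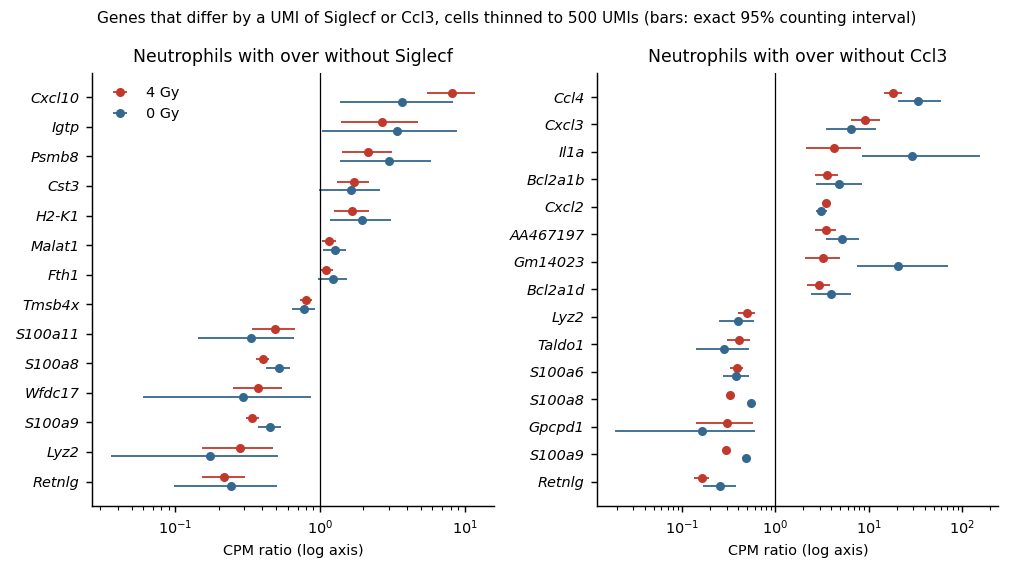
CPM ratio (log axis) of genes in neutrophils with a UMI of Siglecf (left) or Ccl3 (right) over neutrophils of the same library without one, in cells thinned to 500 UMIs, at 4 Gy and at 0 Gy. Bars are exact 95% counting intervals. Cxcl10 leads with Siglecf (8.13 at 4 Gy and 3.67 at 0 Gy) and Ccl4 with Ccl3 (18.3 at 4 Gy and 33.9 at 0 Gy). The genes were chosen by the bound nearer to 1 over both libraries, so a common side of 1 was fixed by the choice.

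Among the 12 genes outside the lists with the highest lower bound of the ratio, 4 (Fn1, Ctsk, Atp6v0d2 and Gzma) had over 25% of their UMIs at 4 Gy in 1 cell. Fn1 had 152 UMIs at 4 Gy and 1 at 0 Gy, and 1 cell held 88 of them. Ctsk, a cathepsin of osteoclasts and macrophages, had 123 and 2 UMIs, with 85 in 1 cell, and Atp6v0d2 51 UMIs in 11 cells at 4 Gy and none at 0 Gy. Against the 3 UMIs that a count of 0 allows in the 0 Gy library, Atp6v0d2 was at least 6.27-fold higher, and the exact interval of its ratio began at 4.92. Trem2 and Dab2, macrophage genes, each had 56 UMIs at 4 Gy and 3 at 0 Gy. Prok2, a chemokine-like peptide of neutrophils, was spread over 34 cells at 4 Gy and 3 at 0 Gy, with 110 UMIs and 3 UMIs. Csta2, a cystatin, was spread over 80 and 11 cells, with 128 and 12 UMIs. Both reached the minimum of UMIs only through the 4 Gy library. The same holds for Fn1, Ctsk, Atp6v0d2, Trem2 and Dab2, and for Scgb1a1 below. Lgals1, the galectin 1 gene, had 221 UMIs in 52 cells at 4 Gy and 14 in 8 cells at 0 Gy. Car4, a carbonic anhydrase, had 190 in 45 and 18 in 5. Gm6977, annotated as a processed pseudogene, had 162 in 130 and 16 in 16. Scgb1a1, the club cell secretoglobin, had 49 UMIs in 39 neutrophils at 4 Gy and 1 at 0 Gy. After thinning it was seen in 1.06% of neutrophils and 0.296% of B cells at 4 Gy, and in 0.360% and 0.0438% at 0 Gy. Gzma, a granzyme of killer lymphocytes, was in 1.72% of thinned neutrophils and 1.83% of B cells at 4 Gy, and in 0.360% of neutrophils at 0 Gy, also under the share in B cells. Of its UMIs, 1 neutrophil held 181 of 446 at 4 Gy and 1 held 37 of 45 at 0 Gy.

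Among the 12 genes with the lowest upper bound, Ccl17 alone had over 25% of its UMIs at 0 Gy in 1 cell. Csrnp1, an immediate early nuclear protein, was at 195 CPM at 4 Gy and 430 CPM at 0 Gy, ratio 0.455 (0.392 to 0.528), in 234 and 140 cells. Thbd, the thrombomodulin gene, had 31 and 39 UMIs in 22 and 27 cells, ratio 0.293 (0.177 to 0.482). Ace, Cx3cr1 and Eno3, genes of nonclassical monocytes, were also in this set at ratios of 0.478, 0.430 and 0.446. In cells under 5000 UMIs the ratio of Cx3cr1 was 1.47, and after thinning that of Eno3 was 1.34. Ccl17 was in 5 cells at 4 Gy and 2 cells at 0 Gy, and 1 of the 0 Gy cells held 44 of its 45 UMIs. Thbd and Ccl17 reached the minimum of UMIs only through the 0 Gy library.

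Set beside other leukocytes of the same libraries, the neutrophils had the lowest list median for immediate early genes. It was -0.49 in neutrophils, and -0.35 in cells chosen as nonclassical monocytes, -0.21 in NK cells, -0.06 in T cells, -0.05 in classical monocytes, 0.03 in C1q macrophages and 0.06 in B cells. The NF-kB feedback list was lower in all 3 of the monocyte and neutrophil sets, at -0.36 in neutrophils, -0.38 in nonclassical and -0.31 in classical monocytes. The difference between cell types was not tested. The ratio of Zfp36 was 0.592 (0.562 to 0.623) in neutrophils and 0.802 (0.692 to 0.930) in classical monocytes, and that of Fth1 1.56 in neutrophils and 1.09 (1.04 to 1.13) in classical monocytes. Wfdc17 was at 2906 CPM at 4 Gy and 1359 CPM at 0 Gy in neutrophils and at 1104 and 1120 CPM in classical monocytes. Cdkn1a was higher at 4 Gy in every cell type listed, at 1.62 in neutrophils, 1.60 in classical monocytes and 3.34 in B cells. The specific and gelatinase granule list had a median of 0.44 in neutrophils (18 measured). It was 0.45 in nonclassical monocytes (5 measured) and 0.24 in classical monocytes (8 measured). In C1q macrophages, B cells and T cells it was 0.12, 0.08 and -0.07, and in NK cells 2.15 on 3 measured genes. The type I interferon list, level in neutrophils, had a median of 0.60 in C1q macrophages.

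**Figure D5:**
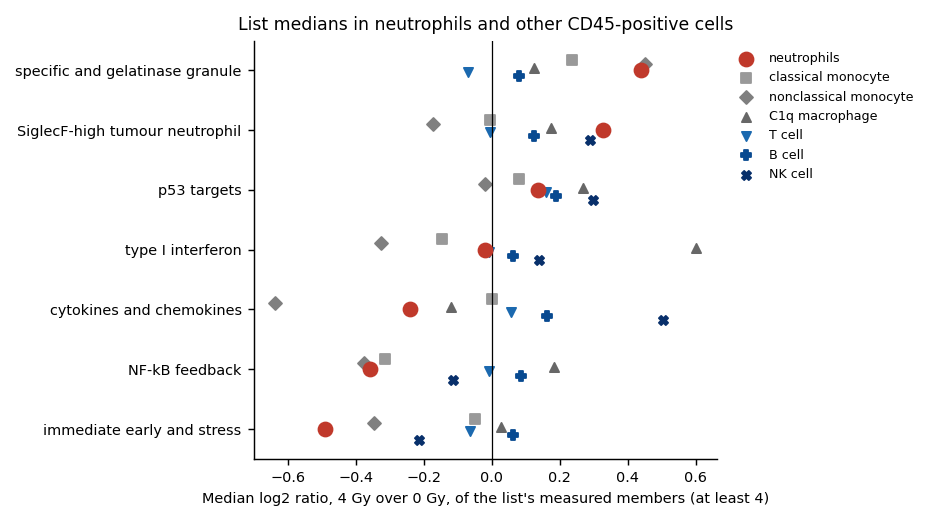
Median log2 ratio, 4 Gy over 0 Gy, of the measured members of 7 gene lists (at least 4 members) in neutrophils and 6 other sets of CD45-positive cells chosen by marker rules. Neutrophils lie lowest for immediate early genes at -0.49, and near 0 for type I interferon genes at -0.02.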

How the data were processed

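The authors deposited 1 matrix per library with log2(CPM + 1) per cell and gene, as the values show, for 20640 genes. The submitters' processing notes list STAR, Partek, Seurat and mm10 but give neither versions nor what each did. UMI counts were recovered from the steps of these values, and 99.9994% to 99.9996% of values gave whole numbers within 0.02. No sample column was left unused.

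Neutrophils were chosen by the rule in every CD45-positive barcode, with no further filter on cells. The rule, the gene lists and the markers were chosen with earlier results of these data known. UMIs were summed per library and expressed as CPM. Genes with at least 50 UMIs over both libraries were called measured, and past 1.5-fold was judged on log2(CPM + 5). Intervals are 95%: exact Poisson for levels, exact conditional binomial for ratios, Clopper-Pearson for shares, and all cover counting error only. With 1 library per dose and no map of cells to the 4 mice, a count test was not possible. To compare detection, cells were thinned to 500 UMIs, which left out 9 neutrophils at 4 Gy and 1 at 0 Gy, and 2 and 0 B cells. Scrublet in scanpy 1.11.5 marked doublets at a set rate, 739 barcodes (7.69%) at 4 Gy and 235 (4.34%) at 0 Gy, which were removed only as an alternative.

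Outside the lists, the 12 measured genes with the highest lower bound and the 12 with the lowest upper bound of the ratio could be named, within a list up to 4 members past 1.5-fold and 2 others, and for anchor genes (such as Siglecf) the 8 most different genes. Further genes of the lists, Tspo, and the genes drawn by S100 range were chosen after their values were seen. Positions are from GENCODE vM21 and upstream sequences from RefSeq, both on GRCm38, the assembly of mm10. List genes such as Mpo and Elane were not analysed here, and some genes that the naming rule allows are not reported here. The interval code was tested on simulated data. Python 3.11.15, numpy 2.4.6, pandas 2.3.3, scipy 1.17.1 and matplotlib 3.10.9 were used.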

Additional observations from a re-analysis of the deposited data

How the results depend on the processing

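The share ratio of 1.55 stayed between 1.43 and 1.60 under 8 of 9 alternatives (other gene minimums, excluding genes kept, thinning to 1000 UMIs, doublets removed, monocyte genes, cells under 5000 UMIs) and was 1.27 as a share of barcodes outside the T, B and NK cell rules. The counts of 381 genes higher and 263 lower at 4 Gy were 197 and 139 after thinning (1673 measured), 56 and 48 with a pseudocount of 50 CPM, 735 and 530 at a minimum of 20 UMIs, 94 and 67 at 200 UMIs, and 1235 and 1082 with no minimum. Under the other 11 alternatives each count stayed within 1.5 times. The median log2 ratio of the MHC class II list was 2.03 without monocyte genes and 0.055 without the richest cell, and the other 21 lists gave no reversed call. Some of their medians still changed sign. Of 16 alternatives, interferon gamma kept its sign in 4, surface receptors in 7, lineage transcription factors in 10 and type I interferon in 11. NADPH oxidase and p53 targets kept it in 14, and MHC class I and proliferation in 15. Among named genes, in neutrophils without monocyte genes the log2 ratio turned to 1.06 for Ccl17, 1.80 for Cd74, 1.95 for H2-Aa, 0.62 for Eno3, 0.62 for Smpdl3b and -0.31 for Gzma. In cells under 5000 UMIs it was 0.65 for Ccl17, 0.44 for Cx3cr1 and 0.074 for Smpdl3b. Without the richest cell it was 0.24 for Ccl17 and 0.011 for H2-Aa, and after thinning 0.36 for Eno3. The cause was not tested. The alternatives on monocyte genes, large cells and richest cells were chosen after the data were seen. No paired analysis was possible because each dose had 1 CD45-positive library. With 279 neutrophils and 751432 UMIs at 0 Gy, genes under about 50 UMIs were not compared.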
